A study of Mus musculus with 4 samples.

Results

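The nuclear pore and transport genes were 63 of the 21887 protein-coding genes that RefSeq places on chromosomes 1 to 19, X and Y of the mouse assembly GRCm38. They were chosen by symbol, with earlier results of these lists known. The set held 29 genes for parts of the pore, 30 for the carriers that pass through it, and 4 for the Ran cycle that gives transport its direction. Summits of chromatin immunoprecipitation sequencing, which maps where a protein sits on DNA, were taken from thymus of mice at 4 weeks of age. All mice were homozygous for the germline p53 AD allele (p53 AD/AD), whose protein is described as dimeric, and no thymus with another p53 genotype was analysed here. The lists came from 2 libraries for p53, read at 50 nt, and 1 for PPAR-alpha, a nuclear receptor for fatty acids, read at 75 nt. Antibody and read length therefore cannot be told apart. The labels do not say whether the p53 libraries came from separate mice, so their spread may be technical, and 1 input library was not analysed here. In whole thymus, more cells carrying a site and more protein at the site in each cell cannot be told apart.

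The nuclear pore complex is a channel through the nuclear envelope. Ring-shaped scaffolds hold it in the membrane, flexible phenylalanine-glycine proteins fill it, and filaments extend into the cytoplasm and a basket into the nucleus. Importins carry proteins inward and exportins carry proteins and RNA outward, and both read the state of the small GTPase Ran, while messenger RNA leaves through Nxf1 with Nxt1. The p53 protein itself uses this route, because an export signal in its tetramerisation domain can be read by the exportin Xpo1.

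The highest-scoring member summits of all lists lay at the starts of Nup50, a basket protein gene, and Xpo5, the exporter of microRNA precursors. Their promoters are shown first because the summits of all 3 lists fell inside them. The sequences are the 250 bases before the start in RefSeq GRCm38.p6, 5′ to 3′, at chr15:84923178-84923427 on the plus strand for Nup50 and chr17:46202561-46202810 on the plus strand for Xpo5. Capitals mark each copy of a palindrome known as the binding consensus of NRF1, an activator of housekeeping genes.
Nup50: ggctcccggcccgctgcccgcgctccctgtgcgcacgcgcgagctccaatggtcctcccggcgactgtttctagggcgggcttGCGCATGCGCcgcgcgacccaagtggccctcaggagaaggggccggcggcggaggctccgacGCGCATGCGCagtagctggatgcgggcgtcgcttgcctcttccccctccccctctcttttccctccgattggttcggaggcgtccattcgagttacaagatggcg
Xpo5: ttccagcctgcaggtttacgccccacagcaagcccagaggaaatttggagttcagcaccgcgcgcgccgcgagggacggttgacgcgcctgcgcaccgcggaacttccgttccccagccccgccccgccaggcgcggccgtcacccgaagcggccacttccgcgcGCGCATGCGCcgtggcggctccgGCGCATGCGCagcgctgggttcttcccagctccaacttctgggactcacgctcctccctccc

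Each promoter held 2 copies of the palindrome. Counted back from the start, the Nup50 copies spanned bases −167 to −158 and −105 to −96, and the Xpo5 copies −85 to −76 and −62 to −53. The Nup50 summits lay at −187 in p53 replicate 1, −153 in p53 replicate 2 and −199 in PPAR-alpha, on either side of the upstream copy. The Xpo5 summits, in the same order, lay at −88, upstream of both copies, at −76, the last base of the upstream copy, and at −42, downstream of both. A match of letters is a description of the sequence and was not tested as a site of any factor.

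How often did summits lie near members? At the deposited threshold a summit lay within 5 kb of either gene end for 19 of the 63 members in p53 replicate 1, for 29 in p53 replicate 2 and for 15 in PPAR-alpha. These are 30.2%, 46.0% and 23.8% of the members. Among all protein-coding genes the shares were 12.9%, 16.4% and 12.3%. Within 1 kb the members numbered 14, 23 and 10, or 22.2%, 36.5% and 15.9%, beside 9.21%, 11.9% and 8.80% of all genes. Both p53 replicates had a summit within 5 kb for 14 members (22.2%, beside 7.96% of all genes), and all 3 lists did so for 7 (11.1%, beside 4.87%). Within 1 kb these counts were 10 (15.9%, beside 5.07%) and 5 (7.94%, beside 2.80%). Some list reached 37 of the 63 members (58.7%, beside 24.7% of all genes), and 26 had no summit in any list. No test was run over genes, because the members were chosen with results of these lists known and neighbouring genes share summits.

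Promoters rich in CpG, which many constantly used genes have, were common among members. Of the 51 members with a tabulated promoter, 46 were CpG-rich (GC content of 50% or more and a ratio of observed to expected CpG of 0.6 or more), which is 90.2%, beside 48.3% of all genes with one. Within 5 kb, summits lay near 30.4%, 45.7% and 28.3% of these 46 members in p53 replicates 1 and 2 and PPAR-alpha. For all 8452 CpG-rich genes the shares were 21.2%, 27.2% and 20.4%. The gap to the background was thus smaller among CpG-rich genes than among all genes in each list, and the part of CpG content in the result was not tested. Genes of other basic machinery also exceeded the background. Of 39 proteasome subunit genes, 9, 13 and 7 had a summit within 5 kb (23.1%, 33.3% and 17.9%). Of 21 spliceosomal Snrp, Sf3a and Sf3b genes, 5, 8 and 7 did (23.8%, 38.1% and 33.3%). These comparison groups were picked after the member counts were seen, and no test of the differences between groups was made.

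Pore and carrier genes were compared by share. In p53 replicate 1 a summit lay within 5 kb of 8 of the 29 pore genes (27.6%) and 10 of the 30 carrier genes (33.3%). In p53 replicate 2 the counts were 15 (51.7%) and 12 (40.0%), and in PPAR-alpha 6 (20.7%) and 8 (26.7%). The order of the classes turned between the p53 replicates, so the difference between pore and carriers was no larger than the spread between these libraries. It also turned with the window in replicate 1, where 7 pore genes (24.1%) and 6 carrier genes had a summit within 1 kb. Of the 4 Ran cycle genes, 1, 2 and 1 had one within 5 kb.

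**Figure D1:**
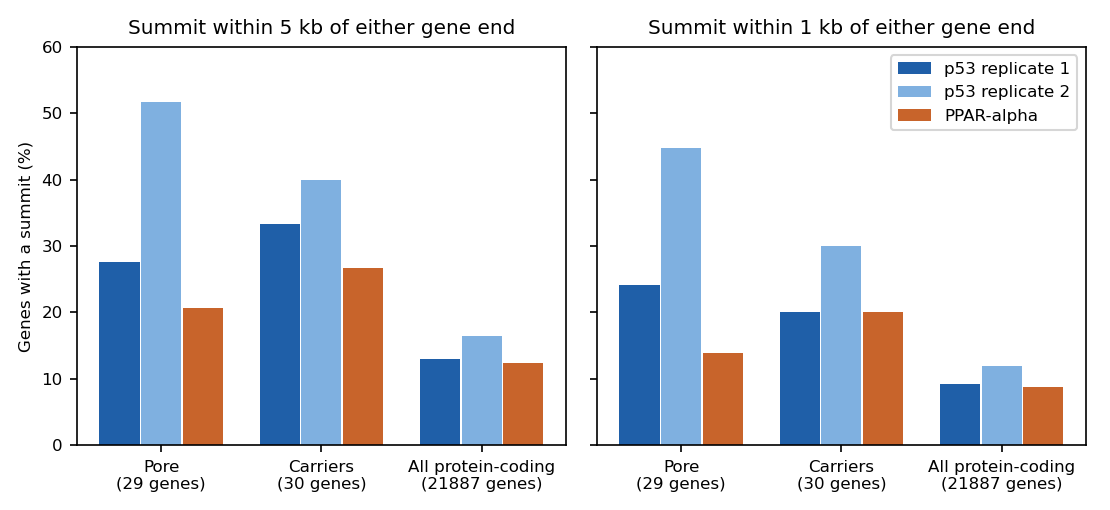
Share of genes (%, vertical axis) with a summit within 5 kb (left) or 1 kb (right) of either gene end, for pore genes, carrier genes and all protein-coding genes, 1 bar per library and no error bars because each bar is 1 library. All bars of pore and carrier genes stand above the bar of the same library for all genes, and p53 replicate 2 is highest in each group.

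A summit in p53 replicate 2 alone was found near 11 members (17.5%, beside 5.88% of all genes). Of the pore genes, 8 had a summit in p53 replicate 2 alone, namely Ndc1, Nup107, Nup188, Nup210l, Nup35, Nup85, Nup88 and Sec13, against 2 carrier genes, Ipo13 and Xpo6. The only one of these 10 above a score of 5 was Ndc1 (6.72). Both p53 replicates had a summit within 5 kb of 5 of the 29 pore genes and 9 of the 30 carrier genes. The share over all genes was 7.96%. Within 1 kb they had one at 5 genes of each class (17.2% of pore and 16.7% of carrier genes), beside 5.07% of all genes. When the p53 summits had to lie within 100 bp of each other, Nup50 was the only pore gene left, and the carrier genes were Ipo7, Tnpo1, Xpo4, Xpo5 and Xpot. These 6 are 9.52% of the members, beside 3.26% of all genes. At 500 bp the counts were 4 pore and 7 carrier genes, beside 6.33% of all genes. Summits of all 3 lists within 100 bp were found at Nup50, Xpo5 and Xpot (beside 1.04% of all genes), and within 500 bp also at Ranbp2 and Seh1l (beside 3.23%). Many carrier summits lay closer to another gene. In p53 replicate 1 the member was the nearest gene for 5 of 12 carrier summits and 6 of 9 pore summits. In p53 replicate 2 it was so for 8 of 13 and 13 of 16, and in PPAR-alpha for 7 of 10 and 6 of 6.

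Scores were low at most members. The score is the authors' value for each summit, read here as −log10 significance, and it ranks summits within a list only. It took 75, 76 and 116 distinct values in the 3 lists, so equal scores at different genes are frequent. The 22 member summits of p53 replicate 1 had a median of 4.70, beside 3.99 for its 2422 summits within 5 kb of any gene end. In p53 replicate 2 the 31 member summits had a median of 3.62, and the 3173 gene-end summits also 3.62. In PPAR-alpha the 17 member summits had a median of 3.58, below the 4.70 of its 2422 gene-end summits. Scores of 10 or more were found in 2, 3 and 3 member summits (9.09%, 9.68% and 17.6%), beside 4.38%, 3.81% and 13.6% of all gene-end summits. These summits lay within 5 kb of Nup50 and Xpo5 in all 3 lists, Ipo7 in p53 replicate 2 and Seh1l in PPAR-alpha. The Ipo7 one was 4690 bp from that gene and 390 bp from Zfp143, and those of Xpo5 lay between Xpo5 and Polh.

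**Figure D2:**
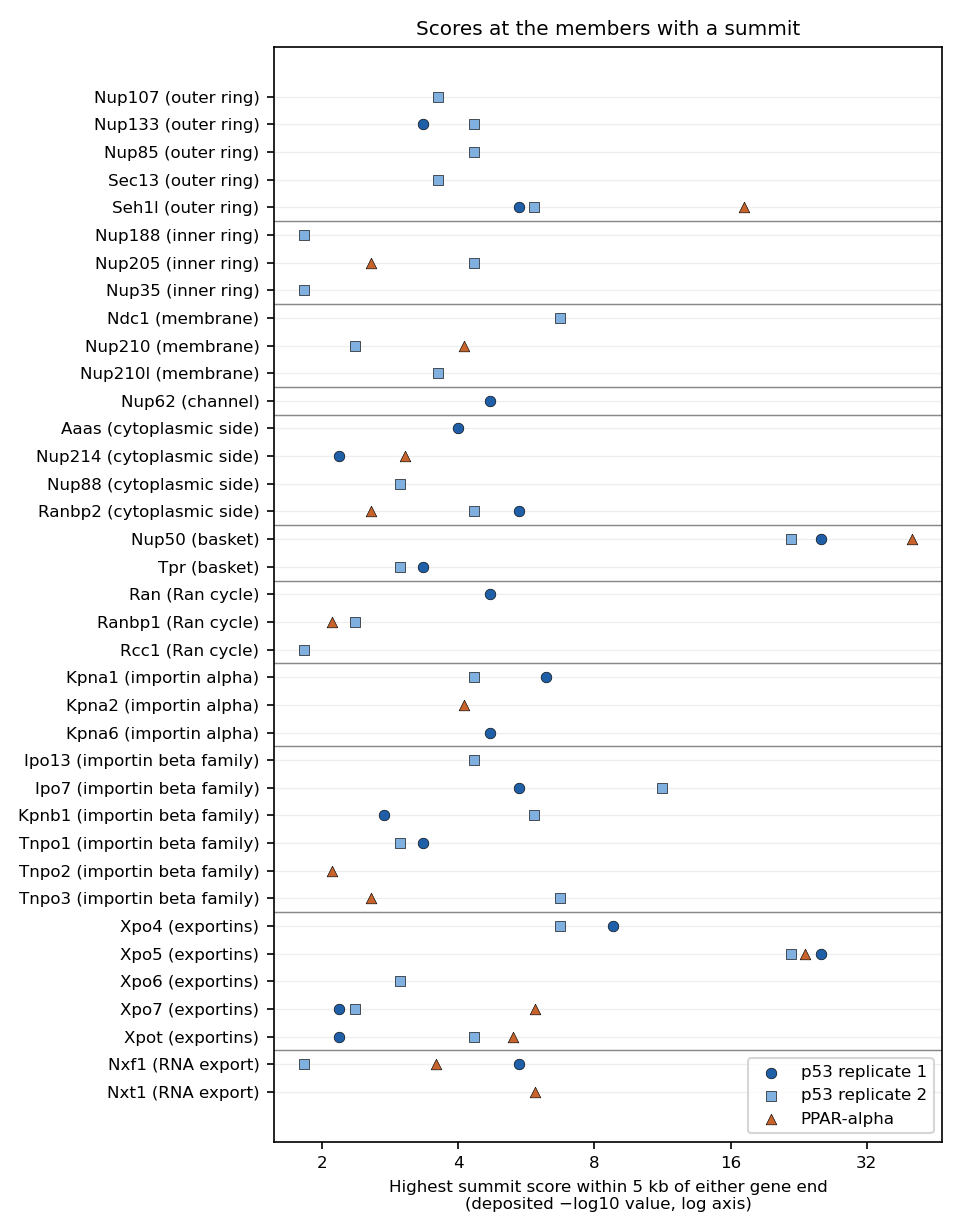
Highest deposited summit score (taken as −log10, log axis) within 5 kb of either gene end for each of the 37 members with a summit. Members are grouped by role, with 1 marker per list. Nup50 and Xpo5 stand apart in all 3 lists with scores from 21.8 to 40.2, and most other markers lie under 10.

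The basket, on the nuclear side of the pore, had summits at Nup50 and Tpr and none at Nup153. Nup50, on chromosome 15 (84923428 to 84942963), encodes a protein that helps importins release their cargo. It scored 25.3 in p53 replicate 1, 21.8 in p53 replicate 2 and 40.2 in PPAR-alpha. These were ranks 13 of 2422, 19 of 3173 and 31 of 2422 among gene-end summits, counting ties at the best rank. The summits lay within 46 bp of each other, and the next gene end was more than 20 kb away. Tpr, a coiled-coil basket scaffold on chromosome 1, had 3.34 and 2.97 in p53 replicates 1 and 2 and none in PPAR-alpha. Its p53 summits lay 633 bp apart and closer to its neighbour Odr4, so they need not belong together.

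The outer ring is the Y-shaped scaffold that coats both faces of the pore. With the 3 lists pooled, summits lay within 5 kb of 5 of its 8 genes, beside 24.7% of all genes. By list, these were 2, 5 and 1 genes in p53 replicates 1 and 2 and PPAR-alpha. The all-gene shares were 12.9%, 16.4% and 12.3%. Within 1 kb the counts by list were again 2, 5 and 1, beside 9.21%, 11.9% and 8.80% of all genes. Seh1l on chromosome 18, whose protein also acts in amino acid sensing, had 1 summit within 1 kb in each list, with scores of 4.70, 5.88 and 17.15 in p53 replicates 1 and 2 and PPAR-alpha. These lay 109 to 265 bp apart. A further p53 replicate 1 summit near Seh1l, with 5.45, lay 240 bp from the neighbour Cep192. Nup133, on chromosome 8, had 3.34 and 4.33 in the p53 replicates, 188 bp apart. Nup107 (3.62), Nup85 (4.33) and Sec13 (3.62), the last also a coat protein of vesicles leaving the endoplasmic reticulum, had a summit in p53 replicate 2 alone. Nup160, Nup43 and Nup37 had none.

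Inner ring genes were reached in p53 replicate 2 and PPAR-alpha and not in p53 replicate 1. Nup205, a large scaffold gene on chromosome 6, had 4.33 in p53 replicate 2 and 2.57 in PPAR-alpha, 231 bp apart. Nup188 and Nup35 had 1.83 each in p53 replicate 2, near the lowest scores of that list, and Nup93 and Nup155 had none. Of the membrane nucleoporins, Ndc1, which anchors the pore, had 6.72 at its start in p53 replicate 2. Nup210 had 2.37 in p53 replicate 2 and 4.13 in PPAR-alpha, which were 1573 bp apart inside the gene. The summit near Nup210l (3.62) lay 33 bp from an end of Rab13 and 1597 bp from Nup210l. Pom121 had none within 5 kb. The channel genes, whose proteins form the barrier, were reached at Nup62 alone (4.70, p53 replicate 1), and that summit lay 21 bp from Atf5. Nup98 and Nup54 had none.

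The filament side was led by Ranbp2, which binds Ran at the cytoplasmic face and attaches SUMO to proteins. On chromosome 10 it had 5.45 in p53 replicate 1, 2.97 and 4.33 in p53 replicate 2, and 2.57 in PPAR-alpha, all within 359 bp of its start. The closest pair, from p53 replicate 2 and PPAR-alpha, lay 22 bp apart. Nup214 had 2.18 in p53 replicate 1 and 3.06 in PPAR-alpha, 587 bp apart and toward its far end. Aaas had 3.99 in p53 replicate 1 and Nup88 2.97 in p53 replicate 2. Rae1, a messenger RNA export factor, had none. Nupl1 and Nupl2, older symbols of channel and filament genes, fell outside the choice by symbol. Nupl1 had 2.18 in p53 replicate 1 and 3.58 in PPAR-alpha, and Nupl2 had none.

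In the Ran cycle, Ran itself had 4.70 in p53 replicate 1, 417 bp upstream of its start. Rcc1, the exchange factor that loads Ran with GTP on chromatin, had 1.83 in p53 replicate 2. The summits of Ranbp1 in p53 replicate 2 (2.37) and PPAR-alpha (2.11) were 87 bp apart but more than 4 kb from it and closer to Zdhhc8. Rangap1, which makes Ran hydrolyse GTP, had none.

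Exportin genes had a summit within 5 kb in 4, 5 and 3 of 7 cases in p53 replicates 1 and 2 and PPAR-alpha, beside 12.9%, 16.4% and 12.3% of all genes. Within 1 kb they numbered 2, 3 and 2 of 7, beside 9.21%, 11.9% and 8.80%. Xpo5, on chromosome 17 (46202811 to 46243598), scored 25.3, 21.8 and 23.4, at ranks 13, 19 and 78 among gene-end summits. Its summits lay 12 to 46 bp apart, in the interval between its start and an end of Polh, the gene for a DNA polymerase that copies past damage. The replicate 1 summit was 82 bp from Polh and 88 bp from Xpo5. The replicate 2 summit was 94 bp from Polh and 76 bp from Xpo5, and the PPAR-alpha summit 128 bp and 42 bp. Xpo4, on chromosome 14, had 8.81 and 6.72 in the p53 replicates, 29 bp apart and about as far inside the gene (3005 and 3034 bp from its end), and none in PPAR-alpha. This is a p53 position shared by both replicates with no other protein-coding gene end within 5 kb. Xpot, the transfer RNA exporter, had 2.18, 4.33 and 5.30, all at its far end and 112 to 211 bp from Tbk1, a kinase gene of innate immunity. Xpo7 had 2.18, 2.37 and 5.91, all closer to Dok2. Xpo6 had 2.97 in p53 replicate 2 alone. Neither Xpo1, the main exporter of proteins, nor Cse1l, which returns importin alpha to the cytoplasm, had a summit within 5 kb. The nearest to Xpo1 lay 8446 bp away in PPAR-alpha and more than 265 kb away in both p53 lists.

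Import carriers of the beta family bind cargo or adaptors directly. Kpnb1, the founding importin beta, had 2.74 and 5.88 in the p53 replicates, 268 bp apart and up to 998 bp upstream, and none in PPAR-alpha. Tnpo3, which imports splicing factors, had 6.72 in p53 replicate 2 and 2.57 in PPAR-alpha, 78 bp apart. Tnpo1, the importer of RNA-binding proteins, had 3.34 and 2.97 in the p53 replicates, 60 bp apart. Ipo7 had 5.45 in p53 replicate 1 and 11.3 in p53 replicate 2 within 67 bp, but more than 4.6 kb beyond its far end and 323 and 390 bp from Zfp143. Its own start had 2.97 in p53 replicate 2. Tnpo2 had 2.11 in PPAR-alpha, and the summit near Ipo13 (4.33, p53 replicate 2) lay 30 bp from Dph2. Ipo4, Ipo5, Ipo8, Ipo9 and Ipo11 had none.

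The importin alpha adaptors recognise the classical import signal. Kpna1, on chromosome 16, had 6.24 in p53 replicate 1 and 4.33 in p53 replicate 2 at the same end, 252 bp apart, and none in PPAR-alpha. A further p53 replicate 1 summit (4.70) lay 4078 bp beyond the other end of Kpna1 and 24 bp from Wdr5b. Kpna2 was reached in PPAR-alpha alone (4.13) and Kpna6 in p53 replicate 1 alone (4.70). In the RNA export group, Nxt1 had 5.91 in PPAR-alpha, 55 bp past its start. Nxf1 had 2 PPAR-alpha summits of 3.58 around its start and another of 3.58 beyond its far end, 413 bp from Tmem179b. Its p53 summits of 1.68, 5.45 and 1.83 also lay beyond its far end and closest to Tmem179b or Tmem223. The closest p53 replicate 1 and PPAR-alpha summits there were 338 bp apart. Nxf2, Nxf3, Nxf7, Nxt2 and the channel-like gene Nup62cl are on X and had none. They are the 5 members on that chromosome, where 0.414%, 0.621% and 0.932% of the 966 protein-coding genes had a summit within 5 kb. On autosomes alone the share in p53 replicate 1 was 28.6% of pore and 38.5% of carrier genes. It was 53.6% and 46.2% in p53 replicate 2, and 21.4% and 30.8% in PPAR-alpha. The all-gene shares of each list given above include genes on X, and no share over all autosomal genes was taken.

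**Figure D3:**
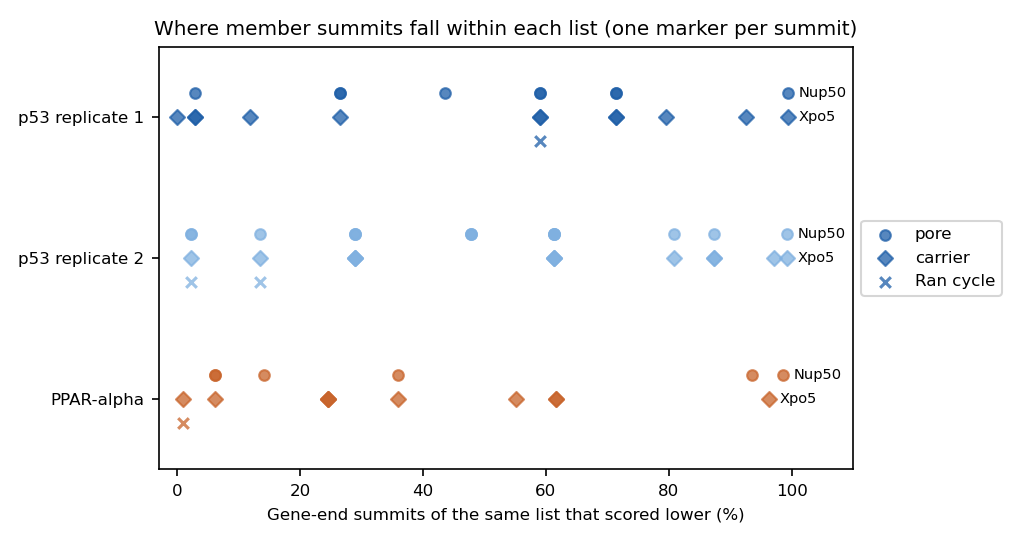
Share of the gene-end summits of the same list that scored lower (%, horizontal axis) for each member summit, by list and class, 1 marker per summit. Nup50 and Xpo5 sit above 96% in each list, and the other markers spread over the range down to 0.

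The 26 members without a summit within 5 kb were far from summits in most cases. The median distance from either end to the nearest summit of any list was 76.7 kb, and 8 of the 26 had one within 20 kb. These 8 include Nup160 (6131 bp), Pom121 (6236 bp), Rae1 (6407 bp), Ipo4 (7536 bp) and Nup153 (8601 bp). Absence from a list says only that no summit passed the authors' threshold there, and the depth of the libraries is unknown.

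Member summits gathered at gene starts, as did those of other genes. The promoter table gives the strand of 51 members. Within 1 kb of an end of these, 10 of 11 summits were at the start in p53 replicate 1, 18 of 20 in p53 replicate 2 and 9 of 10 in PPAR-alpha. For all genes the shares were 93.1%, 93.9% and 91.1%. The exceptions were Xpot in each list and Nxf1 in p53 replicate 2. Summits shared by all lists upstream of the start within 250 bp were found at Nup50 and Xpo5, whereas those of Ranbp2 lay on both sides.

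**Figure D4:**
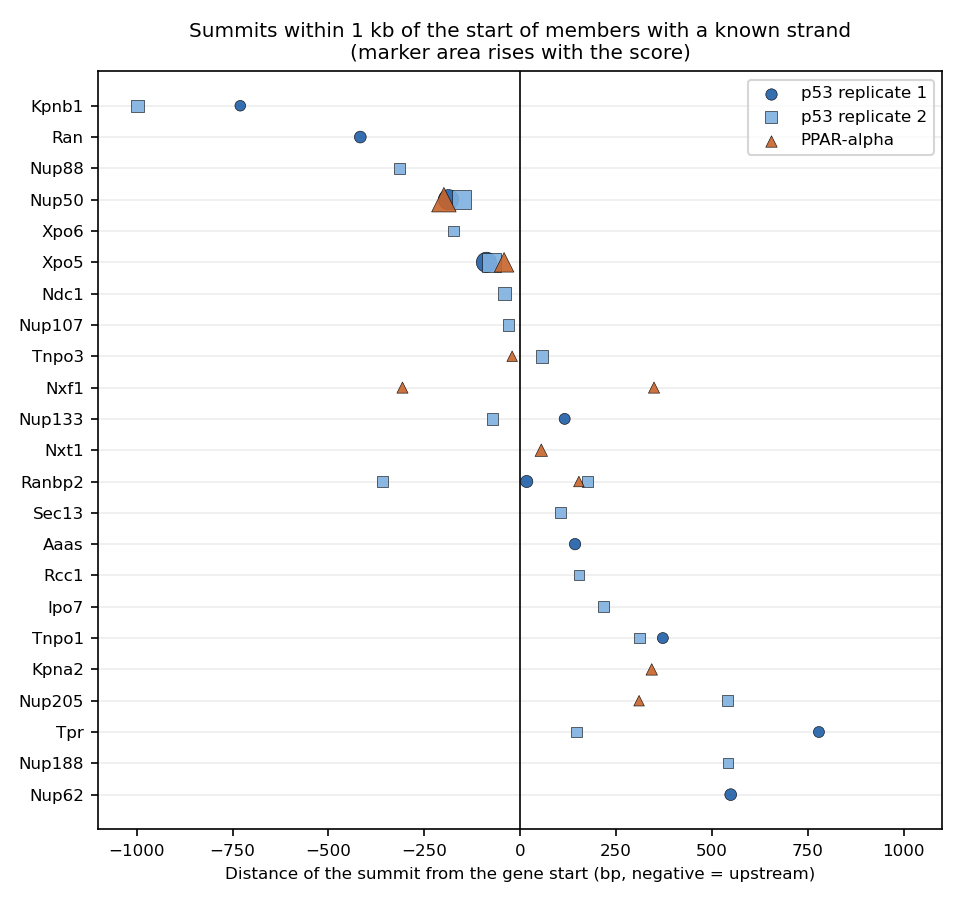
Distance of each summit from the gene start (bp, horizontal axis, negative is upstream) for members of known strand with a summit within 1 kb of the start, 1 marker per summit, with the area rising with the deposited score. The large markers of Nup50 and Xpo5 lie upstream in all 3 lists, and the small markers of other members lie on both sides of the start.

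Promoter windows (250 bases before to 50 after the start) of Tnpo3 and Tnpo1 also held summits of more than 1 list. The 250 bases before the start are printed from RefSeq GRCm38.p6, 5′ to 3′, at chr6:29609850-29610099 on the minus strand for Tnpo3 and chr13:98891043-98891292 on the minus strand for Tnpo1, where the start is an internal one. Capitals mark the bases from the upstream summit to the start.
Tnpo3: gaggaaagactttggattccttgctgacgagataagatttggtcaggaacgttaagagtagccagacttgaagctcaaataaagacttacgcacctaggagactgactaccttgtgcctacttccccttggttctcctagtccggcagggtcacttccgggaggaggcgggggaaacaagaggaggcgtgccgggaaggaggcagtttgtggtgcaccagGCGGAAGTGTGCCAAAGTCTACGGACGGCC
Tnpo1: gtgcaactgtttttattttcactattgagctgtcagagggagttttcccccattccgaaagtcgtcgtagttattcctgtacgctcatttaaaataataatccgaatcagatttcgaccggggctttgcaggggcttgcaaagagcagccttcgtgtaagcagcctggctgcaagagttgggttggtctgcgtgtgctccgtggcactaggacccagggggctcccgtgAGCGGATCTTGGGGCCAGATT

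At Tnpo3 the PPAR-alpha summit (2.57) lay 30 bases before this start and the p53 replicate 2 summit (6.72) 48 bases past it. At Tnpo1 the summits of p53 replicate 1 and PPAR-alpha lay within 21 bases before and 2 bases past the internal start, which is too far from the gene ends to count in the windows used above. Neither window held the palindrome marked at Nup50 and Xpo5.

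Which letters did member promoters hold? The palindrome marked in capitals at Nup50 and Xpo5, the same on both strands, was found in 5 of the 63 promoters of members (7.94%, some genes having more than 1 promoter), beside 1.33% of all 21263 promoters. It was in 5 of the 33 promoters of members with a summit and in 0 of the 30 promoters of members without one. Besides Nup50 and Xpo5 it lay in the promoters of Nup107, Ran and Nup62, printed as 60 bases of GRCm38.p6 with the palindrome in capitals, to show the same letters at members with lower scores. The positions are chr10:117792735-117792794 on the minus strand, chr5:129019927-129019986 on the plus strand and chr7:44816028-44816087 on the plus strand.
Nup107: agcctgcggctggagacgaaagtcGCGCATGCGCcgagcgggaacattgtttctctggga
Ran: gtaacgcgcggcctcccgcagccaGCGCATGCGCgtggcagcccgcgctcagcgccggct
Nup62: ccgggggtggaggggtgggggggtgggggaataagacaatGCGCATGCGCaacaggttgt

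The p53 replicate 2 summit of Nup107 (3.62) lay 1 bp from the centre of its copy, after rounding up. The p53 replicate 1 summits nearest to the copies of Ran and Nup62 (4.70 each) were 217 and 565 bp away. At Nup50 the summits of p53 replicates 1 and 2 and PPAR-alpha lay 25, 10 and 37 bp from the centre of the nearest copy, and at Xpo5 8, 5 and 16 bp. The summits of p53 replicate 1 and PPAR-alpha nearest to the Nup107 copy lay 125821 and 125842 bp away. All motifs were searched on both strands. CATG, the core of many p53 elements, lies inside the palindrome and cannot be read separately there. It was in 42.9% of member promoters and 56.3% of all. AGGTCA, the repeat unit of nuclear receptor elements, was in 4.76% of member promoters and 14.7% of all. GGGCGG was in 63.5% and 46.2%, CCAAT in 44.4% and 38.2%, CCGGAAGT in 12.7% and 5.15%, and TGACGT in 9.52% and 8.49%. Of the 33 promoters of members with a summit, 26 held GGGCGG and 16 CATG, beside 14 and 11 of the 30 without one. These shares, like that of the palindrome, were thus higher at members with a summit. For the other motifs they were lower. AGGTCA was in 0 and 3, CCAAT in 13 and 15, CCGGAAGT in 3 and 5, and TGACGT in 3 and 3. Some of the 30 promoters of members without a summit are on X, where few genes had a summit. Genes with more than 1 promoter, such as Nxf1 and Ipo5, count more than once in either group. The differences in motif shares were not tested. A promoter without a motif lacks only those letters in that window.

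Of the 17492 protein-coding genes with a tabulated promoter, 257 held the palindrome. A summit lay within 1 kb of 40.9% of them in p53 replicate 1, 46.7% in p53 replicate 2 and 28.4% in PPAR-alpha. For the 8220 genes with a CpG-rich promoter and without the motif, the shares were 15.0%, 20.2% and 15.1%. Summits scoring 10 or more lay within 1 kb of 8.56%, 10.5% and 7.0% of the genes with the motif, in the same order. For CpG-rich genes without it the shares were 0.669%, 0.815% and 2.46%. Among genes with a summit scoring 10 or more within 1 kb, 22 of 98 held the motif in p53 replicate 1 (22.4%). In p53 replicate 2, 27 of 99 did (27.3%), and in PPAR-alpha 18 of 256 (7.03%). Among all genes with a tabulated promoter it was 257 of 17492. The Nup50 and Xpo5 promoters belong to these high-scoring sets in each list. The higher share at genes with the palindrome was thus seen over all genes and not only at transport genes. Whether any factor binds these letters here was not tested, and no NRF1 library was analysed.

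**Figure D5:**
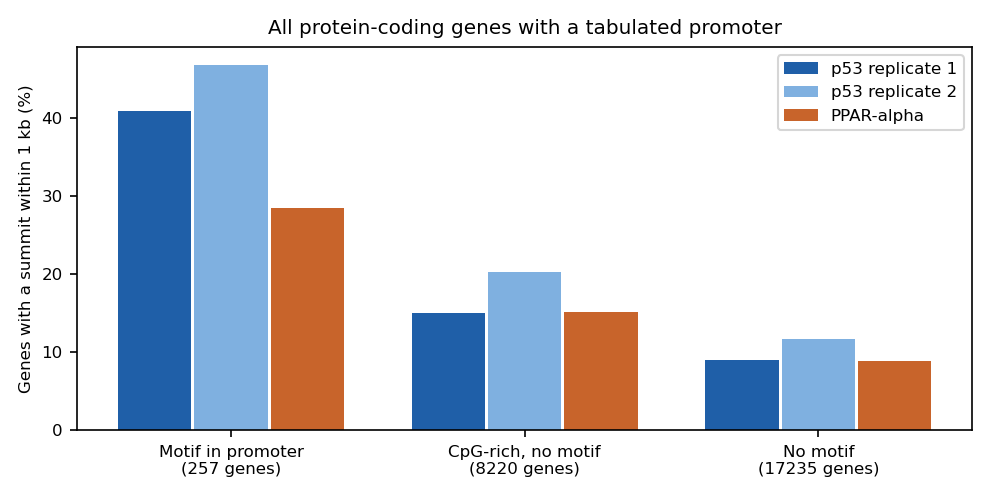
Share of protein-coding genes (%, vertical axis) with a summit within 1 kb of either end, by whether a tabulated promoter holds the palindrome given in the text, 1 bar per library and no error bars because each bar is 1 library. Genes with the motif stand at 40.9%, 46.7% and 28.4%, above CpG-rich genes without it at 15.0%, 20.2% and 15.1%.

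How far did the lists share members? Of the 19 members with a p53 replicate 1 summit within 5 kb, 14 had one in replicate 2 (73.7%), which is 48.3% of the 29 members of replicate 2. PPAR-alpha shared 8 members with replicate 1 (42.1% of those 19 and 53.3% of its own 15) and 11 with replicate 2 (37.9% of those 29 and 73.3% of its own). Over all genes, replicate 1 shared 61.5% of its genes with replicate 2 and 49.6% with PPAR-alpha. Replicate 2 shared 48.6% with replicate 1 and 45.2% with PPAR-alpha, which itself shared 52.2% and 60.2% with replicates 1 and 2. If the input served as control for all lists, which is not given in the sources used here, its errors are shared too. Within 5 kb of a gene end, both p53 replicates and not PPAR-alpha reached 7 members (11.1%, beside 3.10% of all genes). They were Ipo7, Kpna1, Kpnb1, Nup133, Tnpo1, Tpr and Xpo4. Tnpo1 did have a PPAR-alpha summit at its internal start, outside that window. Without a p53 summit, PPAR-alpha reached Kpna2, Nxt1 and Tnpo2 (4.76%, beside 3.34% of all genes). The lack of a PPAR-alpha summit in a list of other read length and unknown depth does not show a lack of binding.

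Other genes of the pathway were taken from a list of 48. Of these, 16, 18 and 12 had a summit within 5 kb in p53 replicates 1 and 2 and PPAR-alpha, beside 12.9%, 16.4% and 12.3% of all genes. Nuclear envelope and lamina genes had one in 7, 8 and 6 of 12 cases (58.3%, 66.7% and 50.0%). Banf1, whose protein bridges DNA and the envelope, had 7.07, 7.58 and 8.57, and Tmpo, a lamina-binding protein gene, had 7.07, 5.88 and 7.20. Lmna, the A-type lamin gene, had 9.40 in p53 replicate 2 and 21.5 in PPAR-alpha, and Lmnb1 had 2.18, 3.62 and 2.57. Messenger RNA export genes had summits in 6, 6 and 3 of 21 cases (28.6%, 28.6% and 14.3%). Among them was the helicase gene Ddx39b, with 6.24 and 12.3 in the p53 replicates and a summit in PPAR-alpha too. Among cofactors of Ran and RNA transport the counts were 1, 2 and 2 of 10, and among pore-associated genes 2, 2 and 1 of 5, where the SUMO protease gene Senp1 had 7.07, 3.62 and 2.11.

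Summits numbered 3608 and 4767 for the p53 replicates and 4070 for PPAR-alpha. Read numbers were not used here, so the precision of each list is unknown. As a description of the tissue, 8 of 8 thymocyte genes had a summit within 5 kb in some list, beside 24.7% of all genes. They were Cd3e, Cd3g, Cd4, Cd8a, Lck, Rag1, Tcf7 and Satb1, named with earlier results of these data known. This is therefore no independent check. In p53 replicates 1 and 2 and PPAR-alpha 7, 7 and 8 of these genes had a summit within 5 kb, beside 12.9%, 16.4% and 12.3% of all genes. No member summit lay in a dense run of summits, defined as 4 or more other summits of the same list within 10 kb. None scored 50 or more.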

How the data were processed

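Chromatin immunoprecipitation libraries of p53 and PPAR-alpha from p53 AD/AD thymus were used as the authors deposited them, as summit lists called per library. Their values were taken to be −log10 p- or q-values, judged by the layout of the deposited lists and their range. The submitters' processing notes list MACS2 2.1.2, Bowtie2 2.3.4.2 and Picard 2.9.0, with neither roles nor settings. The notes give the human build GRCh38 for mouse tissue, so the positions were tested against RefSeq GRCm38.p6: 42.0% to 49.2% of summits lay within 1 kb of a protein-coding gene end, and 6.38% to 8.20% after moving them by 5 to 50 kb. The sources used here give no calling threshold, control or read number.

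A summit, counted from 1, was assigned to every protein-coding gene with an end within 5 kb, or 1 kb. Strand and promoter sequences came from the RefSeq promoter table, which matched 51 of 63 members; Cse1l, Kpna1, Kpna3, Kpna6, Nup210l, Nup35, Nup43, Nup85, Nxf3, Seh1l, Xpo4 and Xpo7 had no entry. Of the other pathway genes, Ddx39 was matched as Ddx39a. Named members have a summit in 2 or more lists or the highest scores of a list, and the remaining members are named by role. The short promoter pieces and the comparison groups were added later. The members and lists were chosen with earlier results of these data known. No test across genes or samples was run, since 1 or 2 libraries stand for each factor. The assignment was tested on simulated data. Python 3.11.15 and pandas 2.3.3 were used.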

Additional observations from a re-analysis of the deposited data

How the results depend on the processing

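Of 68 alternative counts, 48 stayed within 1.5 times of the count reported. With summits scoring 5 or more, 8, 8 and 6 members were left in p53 replicates 1 and 2 and PPAR-alpha. These are 12.7%, 12.7% and 9.52% of members, beside 4.19%, 5.31% and 6.07% of all genes. There 5 members were left for both p53 replicates (7.94%, beside 1.97%) and 3 for all lists (4.76%, beside 1.16%). By list in the same order, 3, 3 and 2 of 29 pore genes and 5, 5 and 4 of 30 carrier genes were left. Assigning each summit to its nearest gene end left 12 members in p53 replicate 1 (carriers 5), 8 for both p53 replicates and 3 for all lists, beside 9.8%, 5.51% and 3.23% of all genes. Carriers of p53 replicate 1 fell to 6 within 1 kb. Requiring summits within 100 bp of each other left 6 members for both p53 replicates (9.52%, beside 3.26% of all genes). It left 3 for all lists (4.76%, beside 1.04%). Leaving out a p53 replicate gave 19 to 29 members in place of the 14 of both replicates, and 8 to 11 in place of the 7 of all lists; the highest values came without replicate 1. Counts of members without dense runs and scores of 50 or more, or on autosomes only, were equal to those reported. No paired analysis was possible because PPAR-alpha has 1 library and no replicate number. Depth is unknown, so a missing summit is no measure of absence.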
